A study of Mus musculus with 8 samples.

Results

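Open chromatin was examined at the loci of 10 genes of the PDGF, VEGF and Kit receptor system in the mouse breast cancer line PB3. They comprised 6 receptor genes (Pdgfra, Pdgfrb, Kit, Kdr, Flt1 and Flt4) and 4 ligand genes (Pdgfa, Pdgfb, Pdgfc and Vegfc), out of 14880 gene loci tested. A region of open chromatin belonged to a gene when that gene was the nearest protein-coding gene and the region lay inside it or at most 50 kb away. By this rule 43 of the 57417 regions in the table belonged to the 10 genes, and all 43 regions and all 10 loci passed the filter on low counts. The locus value of a gene is the count summed over its regions, so it measures accessible DNA in and near the gene and not its expression. Coordinates are on GRCm38 (mm10).

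Accessibility was measured by ATAC-seq, which inserts sequencing adapters into open DNA with a transposase, in 4 lines with 2 libraries each. PB3-ERI-R was labelled as treated with eribulin (spelled Erubilin in the sample labels), PB3-PAC-R with paclitaxel and PB3-VIN-R with vinorelbine, drugs that act on microtubules, and resistant clones had been obtained under 300, 500 and 800 nM of each. PB3-Parental was the untreated line, and all lines derive from PB3 cells, whose label is Er-/Pr-/Her2-. The sources used here give neither the number of clones behind each resistant line nor whether the libraries of a line came from separate cultures, so a difference between lines may be one between clones, and p-values measure a spread between libraries that may be technical. Means are given ± SD over n = 2 libraries and log2 fold changes ± SE.

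The class III receptor tyrosine kinases Pdgfra, Pdgfrb and Kit and the VEGF receptors Flt1, Kdr and Flt4 are built alike, with immunoglobulin-like domains outside the cell and a split kinase domain inside it. Dimeric ligands bring receptors together, the kinases phosphorylate each other, and adaptors such as Grb2, the p85 subunits of PI3 kinase and phospholipase C gamma bind the phosphorylated sites. In the mammary gland the PDGF receptors are known from fibroblasts and pericytes, the VEGF receptors from blood and lymphatic endothelium, and Kit from mast cells, melanocytes and luminal progenitors of the epithelium.

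The libraries held 10521964 to 24052237 counts over all regions. A floor of 3 counts then corresponds to 0.125 to 0.285 counts scaled to library size (CPM) in a single library, which covers counting error only. Log2 CPM of all regions correlated at 0.968 to 0.977 between the libraries of a line, at 0.948 to 0.982 among libraries of PB3-PAC-R, PB3-VIN-R and PB3-Parental, and at 0.133 to 0.23 between PB3-ERI-R and the rest. PB3-ERI-R therefore stood apart across the genome, and the share of all loci or regions called is given beside each count of the 10 genes. In bulk chromatin, fewer cells with an open region and less opening per cell cannot be told apart.

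Promoter windows of 300 bases (250 before and 50 after an annotated start, RefSeq, GRCm38.p6) were matched for 8 of the 10 genes, with 10 windows in all, and 5 of these windows overlapped a region of open chromatin. Windows of Kit, Flt1, Pdgfa and Vegfc are shown because a region called between lines lies over them, and that of Kdr as an example with no region over it, as was also so for Pdgfra, Flt4, Pdgfc and the other Pdgfa window. Capitals mark matches on either strand. They are to the GC box, searched as GGGCGG. They are also to the core promoter box of the TATA kind, searched as TATAAA, and to the core of ETS factor sites, searched as CCGGAA. The AP-1 motif, searched on both strands as TGANTCA, matched in none of the 5 windows. The RUNX motif, searched as TGTGGT, matched in none of them either.
Kit, chr5:75574737-75575036, plus strand: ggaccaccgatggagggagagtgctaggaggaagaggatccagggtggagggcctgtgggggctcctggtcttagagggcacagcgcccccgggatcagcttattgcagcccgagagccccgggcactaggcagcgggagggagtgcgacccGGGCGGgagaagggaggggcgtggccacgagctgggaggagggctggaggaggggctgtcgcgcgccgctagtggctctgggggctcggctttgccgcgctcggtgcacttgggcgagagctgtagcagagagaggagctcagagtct
Flt1, chr5:147725962-147726261, minus strand: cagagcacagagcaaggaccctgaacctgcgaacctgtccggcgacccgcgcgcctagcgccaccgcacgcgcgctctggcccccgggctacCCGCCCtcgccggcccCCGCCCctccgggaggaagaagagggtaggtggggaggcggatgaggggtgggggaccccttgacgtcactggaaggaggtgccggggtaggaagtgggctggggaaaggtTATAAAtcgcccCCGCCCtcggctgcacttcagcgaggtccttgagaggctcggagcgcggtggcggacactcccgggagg
Pdgfa, chr5:138994895-138995194, minus strand: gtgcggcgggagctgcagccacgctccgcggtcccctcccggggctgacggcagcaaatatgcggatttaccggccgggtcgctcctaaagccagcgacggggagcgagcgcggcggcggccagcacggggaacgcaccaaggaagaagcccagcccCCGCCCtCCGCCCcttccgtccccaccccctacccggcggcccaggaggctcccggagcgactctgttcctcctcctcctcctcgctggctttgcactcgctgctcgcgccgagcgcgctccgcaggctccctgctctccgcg
Vegfc, chr8:54077282-54077581, plus strand: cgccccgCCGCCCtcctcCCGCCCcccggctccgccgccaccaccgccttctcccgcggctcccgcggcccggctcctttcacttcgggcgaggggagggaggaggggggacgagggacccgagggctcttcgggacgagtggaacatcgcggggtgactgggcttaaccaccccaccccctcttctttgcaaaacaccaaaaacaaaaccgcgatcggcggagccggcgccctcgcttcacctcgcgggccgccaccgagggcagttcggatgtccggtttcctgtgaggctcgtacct
Kdr, chr5:75978406-75978705, minus strand: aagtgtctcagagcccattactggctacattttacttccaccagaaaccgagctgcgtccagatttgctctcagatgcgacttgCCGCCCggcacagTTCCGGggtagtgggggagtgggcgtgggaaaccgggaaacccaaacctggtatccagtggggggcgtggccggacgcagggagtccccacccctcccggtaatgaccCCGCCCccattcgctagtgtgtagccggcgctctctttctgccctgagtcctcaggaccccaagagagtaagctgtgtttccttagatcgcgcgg
Each of these 5 windows and that of Flt4 held at least 1 GC box, while the Pdgfra and Pdgfc windows, not shown, held 0, and 35.7% of 32851 promoter windows of this length hold one. The Flt1 window held 3 GC boxes and a TATA box that began 31 bases before the start, and a TATA box was found in 13.6% of all windows. The Kdr window held an ETS core, which 14.9% of all windows hold, and AP-1 and RUNX letters occurred in 7.81% and 16.8% of all windows. CpG counts were 20 in the Kit window, 29 in Flt1, 37 in Pdgfa, 35 in Vegfc, 19 in Kdr and 26 in Flt4, and 5 in Pdgfra and 8 in Pdgfc, near the median of 7 over all windows. These matches describe the letters and say nothing of what binds there.

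Against PB3-Parental, the loci of Kit, Flt1 and Pdgfa were more accessible in PB3-ERI-R, and those of Pdgfrb, Kdr, Flt4, Pdgfc and Vegfc were less accessible. For Flt1 the call did not hold relative to the 5 Mb window of chromosome that holds it. For Vegfc the sign turned with the regions counted and relative to its own window, as given below. Pdgfra and Pdgfb did not pass the test. By edgeR's quasi-likelihood test, 8 of the 10 loci were called at an adjusted p under 0.05, beside 58.3% of all tested loci, and the libraries of both lines did not overlap at the same 8 loci, beside 78.7% of all loci. The 3 higher calls stand beside 28% and the 5 lower calls beside 30.3% of all loci. The median log2 fold change of the 10 loci was -0.34, against 0.00 over all loci. Since most loci of the genome were called, the count of calls by itself says little about these genes.

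**Figure D1:**
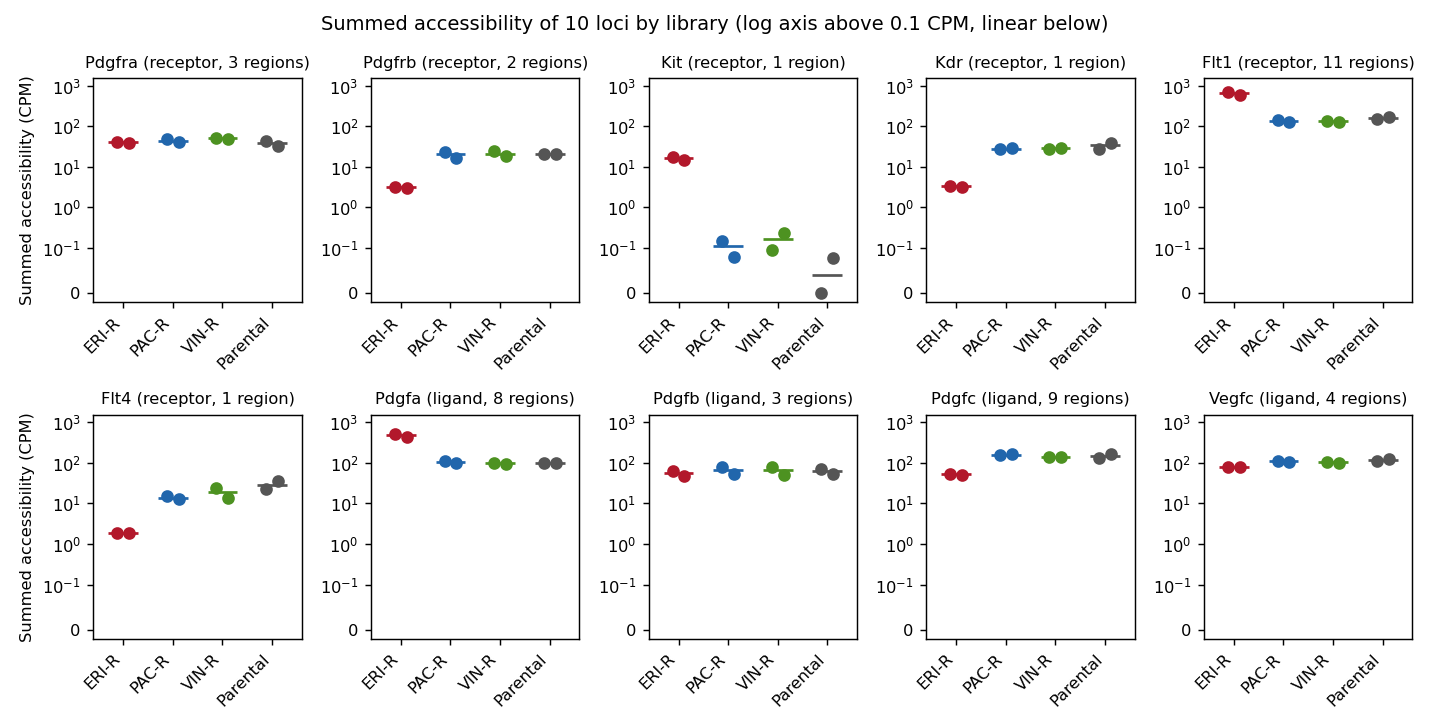
Summed accessibility (CPM, log axis above 0.1 and linear below) of each of the 10 loci in each library, with the mean of each line as a bar and the lines from left to right as PB3-ERI-R, PB3-PAC-R, PB3-VIN-R and PB3-Parental. The PB3-ERI-R points lie apart at every gene but Pdgfra and Pdgfb, above the other lines at Kit (17.1 and 14.8 CPM), Flt1 and Pdgfa and below them at the remaining 5.

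Kit encodes the receptor for stem cell factor. Its locus consisted of 1 region, chr5:75574837-75575260, which covers the annotated transcription start and most of the promoter window shown above. This region held 191 and 137 counts in PB3-ERI-R, 2 and 1 counts in PB3-PAC-R, 2 and 5 counts in PB3-VIN-R, and 0 and 1 in PB3-Parental. Signal was thus plain in both PB3-ERI-R libraries and at the level of single counts in the other 6.

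With 1 parental count, the size of the Kit difference is known only roughly. Scaled to library size, the ratio of PB3-ERI-R to PB3-Parental was 524 (95% exact counting interval 93.4 to 20800). It was 170 over PB3-PAC-R (57.7 to 829) and 119 over PB3-VIN-R (57.1 to 298). The edgeR estimate for the locus against PB3-Parental was 8.45 ± 0.55 on the log2 scale (adjusted p = 5.33e-07).

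Kit lies between Pdgfra and Kdr on chromosome 5, and the stretch from the Pdgfra gene to the Kdr region, 839 kb long, held 8 regions. They comprised the 5 regions of these 3 genes and 3 regions more than 50 kb from any protein-coding gene, which by the rule belong to no gene and were singled out after their values were seen. The first of the 3, chr5:75469866-75470322, held 295 and 218 counts in PB3-ERI-R and at most 4 in any other library (log2 9.37 ± 0.54 against PB3-Parental, edgeR adjusted p = 3.64e-09). The second, chr5:75739092-75739833, held 712 and 412 counts in PB3-ERI-R, against 1 in each PB3-Parental library (log2 9.63 ± 0.44, adjusted p = 1.22e-09). It held 5 and 7 counts in PB3-PAC-R and 7 and 8 in PB3-VIN-R. The last, chr5:75745344-75745854, held 267 and 155 counts in PB3-ERI-R and at most 5 in any other library (log2 6.52 ± 0.42, adjusted p = 8.26e-09). The 3 intergenic regions and the Kit start were thus near 0 in the 6 other libraries and open in PB3-ERI-R, 1 of the intergenic regions before Kit and the other 2 after it.

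**Figure D2:**
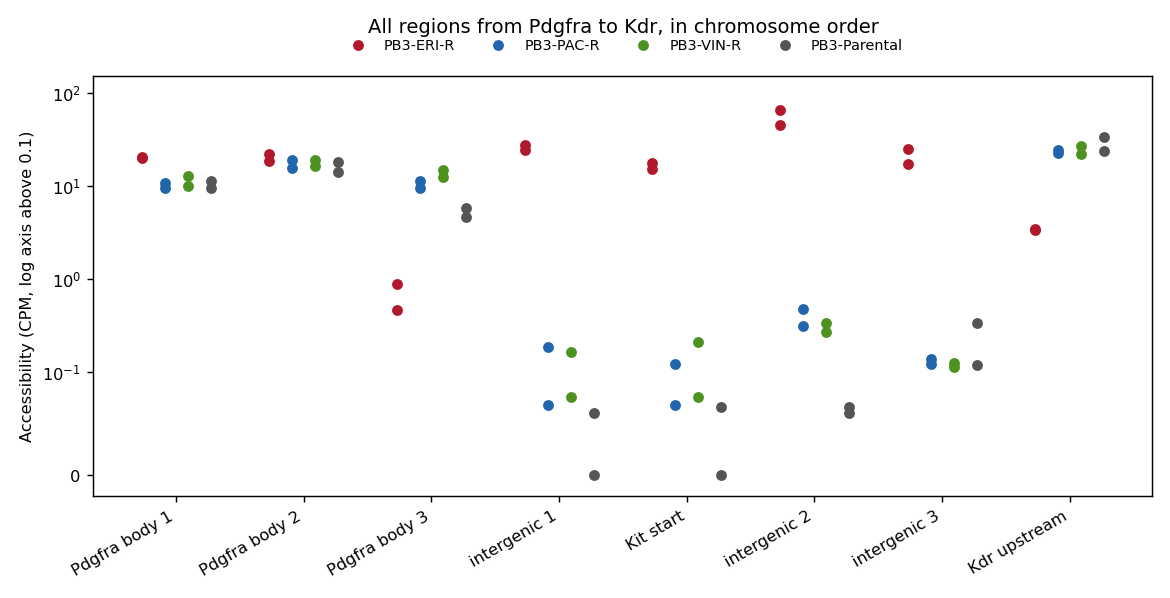
Accessibility (CPM, log axis above 0.1) of the 8 regions from Pdgfra to Kdr in chromosome order, 1 point per library, with PB3-ERI-R at the left of each region and PB3-Parental at the right. The Kit start and the 3 intergenic regions were high in PB3-ERI-R alone among the lines, and the Kdr region and the Pdgfra region nearest to Kit were low there.

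Pdgfra, the PDGF receptor best known from fibroblasts and their progenitors, had summed values of 41.8 and 38.6 CPM in PB3-ERI-R, 48.6 and 39.8 in PB3-PAC-R, 51.3 and 48.5 CPM in PB3-VIN-R, and 42.0 and 33.0 in PB3-Parental. The PB3-ERI-R values fell inside the parental range (log2 0.10 ± 0.15, edgeR adjusted p = 0.607). This sum hid changes in opposite directions inside the gene. A region 3.49 kb from the start, chr5:75155737-75156100, was higher in PB3-ERI-R, at 20.4 ± 0.332 CPM against 10.4 ± 1.14 in PB3-Parental (log2 0.97 ± 0.23, adjusted p = 0.0014). The region 14.2 kb from the start, chr5:75166441-75166882, was lower, at 0.464 and 0.886 CPM in PB3-ERI-R against 5.84 and 4.59 CPM in PB3-Parental (log2 -2.97 ± 0.39, adjusted p = 7.11e-06). The region between them did not pass the test (log2 0.33 ± 0.22, adjusted p = 0.196). No region lay at the annotated Pdgfra start.

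Kdr, which encodes VEGFR2, the main signalling receptor for VEGF-A on endothelium, also had 1 region, chr5:75990208-75990688, 11.8 kb upstream of its start. Its locus values were 3.31 and 3.25 CPM in PB3-ERI-R, 27.0 and 28.4 in PB3-PAC-R, 27.6 and 29.4 CPM in PB3-VIN-R, and 28.1 and 38.9 in PB3-Parental. Both PB3-ERI-R libraries lay far below the other 6, which formed one group (log2 -3.35 ± 0.22 against PB3-Parental, edgeR adjusted p = 5.43e-07). Scaled with the regions in place of the loci, the same counts gave -3.07 ± 0.25, so single-region loci have slightly different folds on the 2 scales.

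Pdgfrb, the PDGF receptor of pericytes and fibroblasts, lies on chromosome 18 and had 2 regions, 1 at a gene end and 1 inside the gene. Its summed values were 3.22 and 3.03 CPM in PB3-ERI-R, 23.5 and 16.6 in PB3-PAC-R, 24 and 18.1 CPM in PB3-VIN-R, and 20.3 and 20.2 in PB3-Parental. PB3-ERI-R lay below every other library (log2 -2.69 ± 0.26, edgeR adjusted p = 8.58e-06). Both regions fell to a similar extent in PB3-ERI-R, by 2.32 ± 0.43 at the gene end (adjusted p = 0.000226) and by 2.48 ± 0.34 inside the gene (adjusted p = 1.27e-05) on the log2 scale.

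Flt1 encodes VEGFR1, which binds VEGF-A tightly and, as a soluble form, holds it away from Kdr. Its locus on chromosome 5 had 11 regions and summed to 710 and 601 CPM in PB3-ERI-R, 144 and 130 in PB3-PAC-R, 134 and 128 CPM in PB3-VIN-R, and 154 and 164 in PB3-Parental. PB3-ERI-R was higher without overlap (log2 2.04 ± 0.12, edgeR adjusted p = 2.46e-07). The region over the Flt1 start, chr5:147724997-147726481, which contains the window shown above, was at 205 and 160 CPM in PB3-ERI-R against 27.0 and 31.1 CPM in PB3-Parental (log2 2.65 ± 0.18, adjusted p = 1.02e-08).

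Regions of the Flt1 locus ranged widely in their response. The most changed, 25.5 kb upstream (chr5:147751498-147752180), was at 105 and 92.6 CPM in PB3-ERI-R against 2.05 and 2.13 CPM in PB3-Parental (log2 5.56 ± 0.22, adjusted p = 8.1e-10). A region in the gene body 8.91 kb from the start was higher by 4.94 ± 0.22 on the log2 scale (adjusted p = 1.13e-09). In the opposite direction, a region deep in the gene, chr5:147589797-147590388, was lower, at 2.32 and 2.66 CPM in PB3-ERI-R against 15.3 and 7.79 CPM in PB3-Parental (log2 -2.22 ± 0.34, adjusted p = 3.73e-05). The 2 most changed regions thus lay on either side of the start region, while 1 of the 11 regions closed and another, 10.7 kb upstream, did not pass the test.

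Flt4 encodes VEGFR3, the VEGF-C receptor of lymphatic endothelium. Its only region, chr11:49616311-49617024, lies 6.63 kb inside the gene, and the locus held 1.88 and 1.84 CPM in PB3-ERI-R, 14.9 and 12.9 in PB3-PAC-R, 24.6 and 13.3 CPM in PB3-VIN-R, and 22.1 and 35.4 in PB3-Parental. PB3-ERI-R lay below the rest (log2 -3.94 ± 0.39 against PB3-Parental, edgeR adjusted p = 9.39e-06). The parental libraries differed from each other by more than at any other of these loci save Kit, relative to their mean (28.8 ± 9.4 CPM).

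Pdgfa encodes a ligand that signals through Pdgfra. Its 8 regions on chromosome 5 summed to 508 and 442 CPM in PB3-ERI-R, 110 and 99.5 in PB3-PAC-R, 101 and 96.1 CPM in PB3-VIN-R, and 99.5 and 101 in PB3-Parental. PB3-ERI-R was higher without overlap, and the other lines lay close together (log2 2.25 ± 0.11 against PB3-Parental, edgeR adjusted p = 1.14e-07). The start region chr5:138994684-138995669, over the window shown above, was at 114 ± 19.5 CPM in PB3-ERI-R against 31.6 ± 0.368 CPM in PB3-Parental (log2 1.85 ± 0.16, adjusted p = 1.02e-07). Its neighbour chr5:138995743-138996326, 0.799 kb from a start, was higher by 1.98 ± 0.16 (adjusted p = 5.16e-08).

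Away from its starts the Pdgfa locus changed more. A gene body region, chr5:138988016-138988367, was at 44.5 and 31.9 CPM in PB3-ERI-R against 0.181 and 0.333 CPM in PB3-Parental (log2 7.20 ± 0.39, adjusted p = 2.73e-09). A downstream region 23.6 kb from the start was higher by 4.92 ± 0.28 (adjusted p = 3.29e-09). Of the 8 regions 7 were called higher, and chr5:138989472-138989926, between changed neighbours, stood at 15.7 ± 3.8 CPM in PB3-ERI-R and 14.6 ± 4.12 CPM in PB3-Parental (log2 0.10 ± 0.28, adjusted p = 0.749).

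Pdgfb, whose product binds both PDGF receptors and recruits pericytes, had 3 regions on chromosome 15 and summed values of 61.8 and 48.6 CPM in PB3-ERI-R, 79.1 and 54.4 in PB3-PAC-R, 79.0 and 51.6 CPM in PB3-VIN-R, and 69.4 and 54.4 in PB3-Parental. The lines overlapped (log2 -0.16 ± 0.23 for PB3-ERI-R against PB3-Parental, edgeR adjusted p = 0.579). As at Pdgfra, single regions moved apart. A gene body region, chr15:80012688-80013339, was at 46.8 and 36.0 CPM in PB3-ERI-R against 12.3 and 7.79 CPM in PB3-Parental (log2 2.04 ± 0.34, adjusted p = 8.33e-05). The region at a gene end, chr15:80024189-80024835, was at 14.4 and 9.96 CPM in PB3-ERI-R against 39.6 and 33.6 CPM in PB3-Parental (log2 -1.58 ± 0.23, adjusted p = 1.78e-05). The remaining region, outside the gene, was lower (log2 -0.80 ± 0.29, adjusted p = 0.0213), but this call was lost with loess offsets (-0.32, adjusted p = 0.28), with the DESeq2 Wald test (-0.83, adjusted p = 0.0543), without PB3-ERI-R replicate 1 (-0.64, adjusted p = 0.135) and without PB3-Parental replicate 1 (-0.68, adjusted p = 0.1).

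Pdgfc encodes a ligand that is cut by proteases before it binds Pdgfra. Its 9 regions on chromosome 3 summed to 53.8 and 50.6 CPM in PB3-ERI-R, 154 and 163 in PB3-PAC-R, 137 and 140 CPM in PB3-VIN-R, and 132 and 168 in PB3-Parental (log2 -1.52 ± 0.12 for PB3-ERI-R against PB3-Parental, edgeR adjusted p = 2.35e-06). The 2 PB3-ERI-R libraries were the lowest of the 8, and 8 of the 9 regions were called lower. Relative to the 5 Mb window that holds Pdgfc, the calls at chr3:81157353-81157625 (-0.48, edgeR adjusted p = 0.231) and chr3:81058348-81058981 (-0.06, adjusted p = 0.793) were lost. The latter was also lost with loess offsets (-0.20, adjusted p = 0.323), and both depended on single libraries. The largest loss, chr3:81030289-81030682, 5.73 kb upstream, was at 0.602 ± 0.0683 CPM in PB3-ERI-R against 17.5 ± 3.51 CPM in PB3-Parental (log2 -4.83 ± 0.36, adjusted p = 2.4e-08). A region 127 kb inside the gene was lower by a like amount, at 1.27 ± 0.871 CPM in PB3-ERI-R against 33.2 ± 5.31 CPM in PB3-Parental. Beside the Pdgfc start, in contrast, chr3:81036581-81037208 was higher, at 32.1 and 25.6 CPM in PB3-ERI-R against 15.1 and 18.7 CPM in PB3-Parental (log2 0.78 ± 0.24, adjusted p = 0.00841). That call was lost without a scaling factor (0.42, adjusted p = 0.119), without PB3-ERI-R replicate 1 (0.60, adjusted p = 0.0862) and without PB3-Parental replicate 1 (0.62, adjusted p = 0.0707).

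Vegfc, the ligand of Flt4, had regions called in both directions. Its 4 regions on chromosome 8 summed to 79.8 and 81.0 CPM in PB3-ERI-R, 111 and 105 in PB3-PAC-R, 104 and 101 CPM in PB3-VIN-R, and 110 and 122 in PB3-Parental, a small difference without overlap (log2 -0.52 ± 0.10 for PB3-ERI-R against PB3-Parental, edgeR adjusted p = 0.000778). The start region chr8:54076997-54078064, over the window shown above, was higher, at 55.6 and 49.8 CPM in PB3-ERI-R against 31.1 and 27.3 CPM in PB3-Parental (log2 0.85 ± 0.18, adjusted p = 0.000599). A gene body region 12.2 kb from the start, chr8:54089734-54090301, was higher too, at 18.9 and 21.3 CPM in PB3-ERI-R against 5.90 and 10.9 CPM in PB3-Parental (log2 1.26 ± 0.29, adjusted p = 0.00126). The start region is equally near to the predicted gene Gm33153 and was counted for Vegfc.

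Farther off, both other Vegfc regions were lower. The one 44.4 kb from the start stood at -2.29 ± 0.35 (adjusted p = 3.54e-05). The region chr8:54216100-54216775, 29.6 kb beyond the gene, was at 7.25 and 10.7 CPM in PB3-ERI-R against 50.5 and 60.0 CPM in PB3-Parental (log2 -2.63 ± 0.20, adjusted p = 2.68e-08). The sign of the Vegfc locus rests on that region: when regions farther than 10 kb were left out, the locus turned to 0.51 (adjusted p = 0.00404). No direction can therefore be given for Vegfc as a whole.

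**Figure D3:**
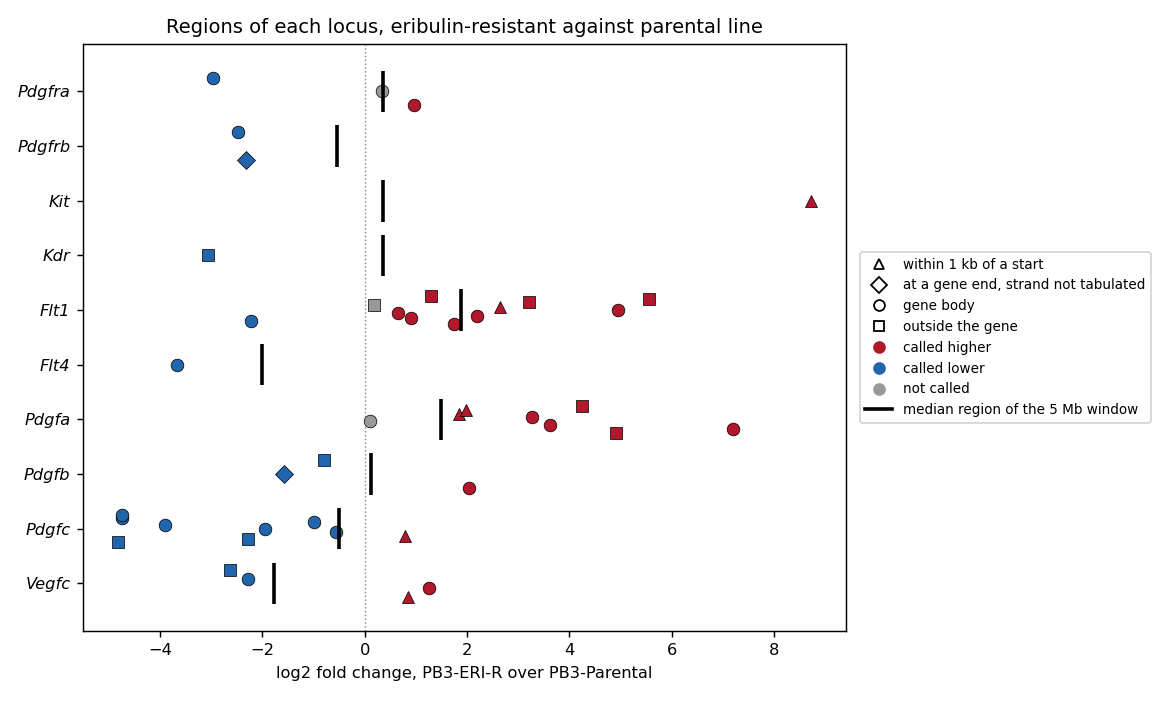
Log2 fold change of each of the 43 regions in PB3-ERI-R over PB3-Parental, 1 row per gene. Red marks regions called higher, blue called lower and grey not called. Marker shapes give the place in the gene, and a black bar the median region of the 5 Mb window that holds the gene. Pdgfra, Flt1, Pdgfb, Pdgfc and Vegfc have regions on both sides of 0, and all triangles (annotated starts) lie to the right of 0. The diamonds, gene ends of Pdgfrb and Pdgfb that may be starts as no strand is tabulated, lie to the left.

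Counted by region, 40 of the 43 were called in PB3-ERI-R against PB3-Parental, beside 73% of all tested regions. They were 22 higher, beside 35.4%, and 18 lower, beside 37.6%. The median log2 fold change was 0.65, against 0.07 over all regions. Of the higher calls, 9 lay at Flt1 and 7 at Pdgfa. The 5 Mb windows that hold these genes on chromosome 5 had median log2 differences of 1.88 and 1.49. Relative to the windows, more of the regions were called lower than higher, as given below. In 5 of the 10 genes regions were called in both directions, so the locus sum of these genes does not describe their regions. Another 3 genes, Kit, Kdr and Flt4, had 1 region each and could not be called both ways. How many of all loci were called both ways was not counted, so this is not shown to be particular to these genes.

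By place, the 6 regions within 1 kb of an annotated start, at Kit, Flt1, Pdgfa, Pdgfc and Vegfc, were all called higher in PB3-ERI-R, although the calls at Pdgfc and at 1 Pdgfa region were lost under the settings named for each. Of all 11805 regions within 1 kb of a start 55.1% were called, 43.9% higher and 11.3% lower. The 24 gene body regions had 11 higher and 11 lower calls, where 76.8% of all 23366 gene body regions over 1 kb from a start were called, 32.3% higher and 44.5% lower. Upstream regions, 8 in number, had 4 higher and 3 lower calls, beside 75.6% called of all 5466, 35% higher and 40.6% lower. Both downstream regions were called, 1 in each direction, beside 72.8% of all 4752, 35.2% higher and 37.5% lower. The remaining 3, at a gene end or outside a gene whose strand is not tabulated, were all lower and belong to Pdgfrb and Pdgfb. Of these, the 2 at a gene end (log2 -2.32 at Pdgfrb and -1.58 at Pdgfb) may lie at a start. The 6 start regions therefore need not be all the starts of these genes that had a region.

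The authors' peak lists, 1 per line, show which regions overlapped a peak. Of the 43 regions 24 (55.8%) did so in PB3-ERI-R, 29 (67.4%) in PB3-PAC-R, 32 (74.4%) in PB3-VIN-R and 28 (65.1%) in PB3-Parental. Over all 57417 regions the shares were 52.4% in PB3-ERI-R, 67.4% in PB3-PAC-R, 78.8% in PB3-VIN-R and 64.6% in PB3-Parental. Every line had a peak at 14 of the 43 (32.6%, against 31.4% of all regions), PB3-ERI-R alone at 10 (23.3%, against 16.9%), and the other 3 lines without PB3-ERI-R at 12 (27.9%, against 26.9%). Peak presence at these genes thus lay near that of the whole table.

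Whole stretches of chromosome also differed in PB3-ERI-R, and the median region of the 5 Mb window that holds each gene is given beside its change. The windows were fixed steps of 5 Mb along the chromosome, not centred on the gene. A gene can therefore lie near an edge of its window, as Pdgfra, Kit and Kdr do, and its own regions count in the median. The window that holds Flt1 (145 to 150 Mb of chromosome 5) had a median log2 difference of 1.88 between PB3-ERI-R and PB3-Parental, and the one that holds Pdgfa (135 to 140 Mb) 1.49. Relative to its window, Flt1 stood at 0.16 (edgeR adjusted p = 0.25), so its call did not hold, and Pdgfa at 0.76 (adjusted p = 0.000116). Within those loci the most changed regions still stood 3.68 (Flt1, 25.5 kb upstream) and 5.72 (Pdgfa, gene body) above their windows. The start regions stood at 0.77 (Flt1, adjusted p = 0.000881), 0.36 (Pdgfa, adjusted p = 0.0509) and 0.49 (the second of Pdgfa, adjusted p = 0.011).

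The windows that hold 4 of the 5 lowered genes had medians below 0, at -2.0 for Flt4, -1.77 for Vegfc, -0.55 for Pdgfrb and -0.51 for Pdgfc. Relative to them, Flt4 stood at -1.95 (adjusted p = 0.00166), Pdgfrb at -2.14 (adjusted p = 4.68e-05) and Pdgfc at -1.01 (adjusted p = 4.54e-05). Vegfc, in a window of 22 regions that include its own 4, turned to 1.25 (adjusted p = 1.68e-06). The window of Pdgfra, Kit and Kdr (75 to 80 Mb of chromosome 5) had a median of 0.36, and there Kit stood at 8.10 and Kdr at -3.70, as before. What moves a whole window was not tested, and copy number was not measured here.

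In PB3-PAC-R none of the 10 loci passed the test against PB3-Parental (edgeR; 1 had an unadjusted p under 0.05, DESeq2 called 0), beside 0.114% of all loci. None of the 43 regions passed either (4 had an unadjusted p under 0.05, DESeq2 called 0), beside 0.0853% of all regions. With a term for the replicate number (replicate block), edgeR called 3 of them. They were the Flt4 region (-1.05, adjusted p = 0.0345), the Pdgfra region chr5:75166441-75166882 (0.99, adjusted p = 0.0383) and the Flt1 region chr5:147716346-147717096 (-1.07, adjusted p = 0.0497). Flt4 had the lowest adjusted p among the loci, at 13.9 ± 1.43 CPM in PB3-PAC-R and 28.8 ± 9.4 CPM in PB3-Parental (log2 -1.04 ± 0.31, adjusted p = 0.475). The Kit region held 3 counts over both PB3-PAC-R libraries and 1 over both PB3-Parental libraries, too few for a fold change.

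PB3-VIN-R gave no called locus against PB3-Parental either (edgeR, 2 had an unadjusted p under 0.05, DESeq2 called 0), beside 0.645% of all loci. With a replicate block edgeR called the Pdgfra locus (0.42, adjusted p = 0.0424). Of the 43 regions 1 was called, beside 0.678% of all regions, while 8 had an unadjusted p under 0.05. DESeq2 called 2 and edgeR with a replicate block 5. The 1 region called without the block was the Pdgfra gene body region chr5:75166441-75166882, the same that was lower in PB3-ERI-R. It was at 12.5 and 14.9 CPM in PB3-VIN-R against 5.84 and 4.59 CPM in PB3-Parental (log2 1.39 ± 0.27, edgeR adjusted p = 0.0311), and at 11.2 and 9.52 CPM in PB3-PAC-R (log2 0.99 ± 0.27, adjusted p = 0.288).

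This Pdgfra call depended on the libraries fitted, while its size changed little. It was lost without PB3-VIN-R replicate 1 (log2 1.51, adjusted p = 0.1), without PB3-VIN-R replicate 2 (1.29, adjusted p = 0.26), without PB3-Parental replicate 2 (1.23, adjusted p = 0.28) and when only both lines were fitted (1.39, adjusted p = 0.0534). It held with the DESeq2 Wald test (1.38, adjusted p = 0.00702). Just outside the threshold in edgeR, the Flt1 region 25.5 kb upstream was at 0.801 and 0.957 CPM in PB3-VIN-R against 2.05 and 2.13 CPM in PB3-Parental (log2 -1.24 ± 0.27, adjusted p = 0.0565). The DESeq2 Wald test called this region (-1.26, adjusted p = 0.0302), as did edgeR with a replicate block (-1.24, adjusted p = 0.0129). At Kit, PB3-VIN-R held 7 counts over both libraries.

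**Figure D4:**
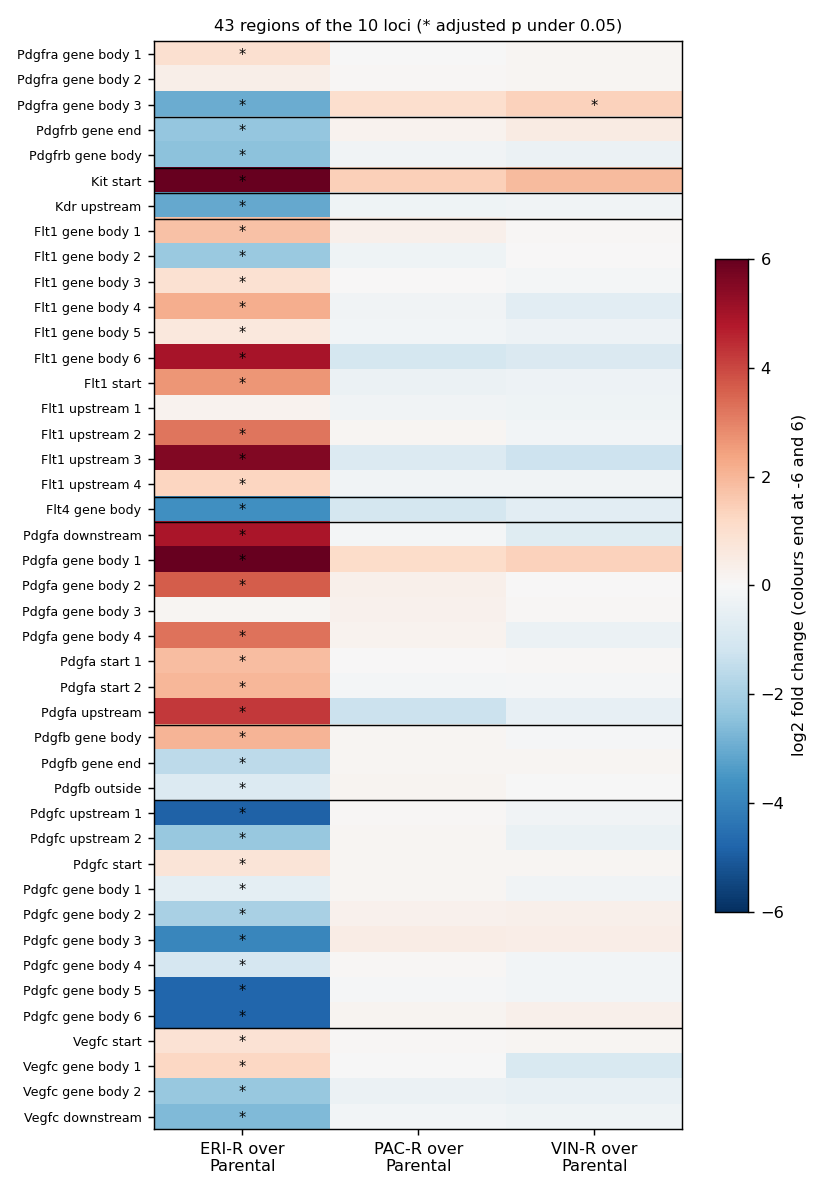
Log2 fold change over PB3-Parental of the 43 regions (rows, in chromosome order within a gene) in PB3-ERI-R, PB3-PAC-R and PB3-VIN-R (columns), with an asterisk where edgeR's adjusted p was under 0.05. The PB3-ERI-R column has 40 asterisks, the PB3-PAC-R column 0 and the PB3-VIN-R column 1, at the Pdgfra region nearest to Kit.

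Tested directly against the other resistant lines, PB3-ERI-R differed at the same 8 loci with the same signs. The 8 calls stand beside 60.3% of all loci against PB3-PAC-R (29.4% higher, 30.9% lower) and 58.6% against PB3-VIN-R (28.2% higher, 30.4% lower). Kit was higher by 7.03 ± 0.48 on the log2 scale than in PB3-PAC-R (edgeR adjusted p = 6.47e-07) and Kdr lower, at -3.07 ± 0.22 (adjusted p = 9.23e-07). Against PB3-VIN-R, Kit stood at 6.54 ± 0.42 (adjusted p = 3.88e-07) and Kdr at -3.12 ± 0.22 (adjusted p = 7.48e-07). Of the regions, 40 were called against PB3-PAC-R, beside 73% (35.3% higher, 37.6% lower), and 39 against PB3-VIN-R, beside 73.1% (35.5% higher, 37.5% lower).

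Between PB3-VIN-R and PB3-PAC-R no difference at these genes passed the test. No locus was called between them (edgeR; 0 had an unadjusted p under 0.05, DESeq2 called 0), beside 0.0336% of all loci, and no region (2 had an unadjusted p under 0.05, DESeq2 called 0), beside 0.00871%. Leaving aside Kit, with 7 counts in PB3-VIN-R and 3 in PB3-PAC-R, the largest of the locus differences was 0.44 ± 0.30 for Flt4 (adjusted p = 1.00).

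Per kb of open region, the levels of the 10 genes were ordered differently in PB3-ERI-R and PB3-Parental. In PB3-ERI-R the highest, whose libraries overlapped, were Pdgfa (106 CPM per kb) and Flt1 (94.7), then Kit (37.7), Pdgfra (36.7), Pdgfb (35.1) and Vegfc (30.9), and the lowest Pdgfc (13.0), Kdr (6.82), Pdgfrb (3.03) and Flt4 (2.61). In PB3-Parental the highest was Kdr (69.6 CPM per kb), followed by Vegfc (44.6), Flt4 (40.3), Pdgfb (39.3), Pdgfc (37.4) and Pdgfra (34.2), and then Flt1 (23.0), Pdgfa (22.3), Pdgfrb (19.5) and Kit (0.0915). Neighbours from Vegfc to Pdgfra in that order lie within each other's spread, as do Flt1 and Pdgfa. In PB3-ERI-R the libraries of Kit, Pdgfra and Pdgfb overlapped too, so the order among these genes is not settled. Kit thus moved from the bottom of the order to its middle, beside Pdgfra and Pdgfb, and Kdr from the top to the lower part.

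Other genes of the system moved both ways in PB3-ERI-R. Of 14 other ligands, coreceptors and class III receptors, 4 loci were higher, 5 lower and 5 not called against PB3-Parental (median log2 fold change -0.07, which turned to 0.04 with loess offsets). Csf1r, the receptor for colony stimulating factor 1 and a relative of Kit, was lower, at 3.77 ± 0.0262 CPM in PB3-ERI-R against 17.0 ± 1.05 CPM in PB3-Parental (log2 -2.17 ± 0.23, edgeR adjusted p = 1.66e-05). Vegfd, a second Flt4 ligand, was higher, at 49.4 ± 8.56 CPM against 19.7 ± 1.9 CPM in PB3-Parental (log2 1.32 ± 0.17, adjusted p = 5.53e-05). Nrp2, a coreceptor for VEGF-C, was higher, at 369 ± 1.91 CPM against 202 ± 30.8 CPM in PB3-Parental (log2 0.87 ± 0.12, adjusted p = 9.82e-05). Kitl, the Kit ligand, did not pass (log2 0.15 ± 0.11, adjusted p = 0.265), and Vegfa stood at -0.32 ± 0.12 (adjusted p = 0.045).

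Of 18 signal adaptors and regulators, 5 loci were higher, 4 lower and 9 not called in PB3-ERI-R (median 0.00). With offsets for the 5 Mb window the balance turned, to 3 higher and 7 lower (median -0.15). Gab1, a docking protein for PI3 kinase, was at 482 ± 27.2 CPM in PB3-ERI-R against 146 ± 3.96 CPM in PB3-Parental (log2 1.72 ± 0.11, edgeR adjusted p = 4.89e-07). Plcg2, a phospholipase C gamma, was higher by 1.87 ± 0.17 (adjusted p = 3.93e-06). Src, a kinase that binds activated PDGF receptors, was lower, at 130 ± 16.5 CPM against 398 ± 42.1 CPM in PB3-Parental (log2 -1.61 ± 0.14, adjusted p = 4.52e-06). These counts stand beside 28% of all loci higher and 30.3% lower, and neither list had a called locus in PB3-PAC-R or PB3-VIN-R against PB3-Parental.

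Of loci that mark the cell types in which these receptors are best known, endothelial ones were called both ways in PB3-ERI-R. Those of fibroblasts and pericytes and of mast cells and melanocytes were, where called, lower, and epithelial ones higher. The calls in each marker list stand beside 58.3% of all loci called, 28% higher and 30.3% lower. Of 10 endothelial markers 7 had regions, with 2 higher, 3 lower and 2 not called, and summed values of 150 to 153 CPM in PB3-ERI-R, 188 to 209 in PB3-PAC-R, 182 to 220 CPM in PB3-VIN-R and 205 to 210 in PB3-Parental. Of these, Cldn5, a tight junction gene of endothelium, was at 1.10 ± 1.05 CPM in PB3-ERI-R against 25.8 ± 3.56 CPM in PB3-Parental, and Erg, an endothelial transcription factor, at 12.9 ± 2.68 CPM in PB3-ERI-R against 2.70 ± 0.639 CPM in PB3-Parental. Cdh5, Sox17 and Esam had no assigned region.

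Fibroblast and pericyte markers had 0 higher, 5 lower and 3 not called of 8 with regions (median -0.93, which with window offsets was -0.39, with 4 lower), and summed to 298 to 300 CPM in PB3-ERI-R, 447 to 449 in PB3-PAC-R, 399 to 465 CPM in PB3-VIN-R and 428 to 464 in PB3-Parental. Col3a1, a fibrillar collagen gene, was lower (log2 -2.95 ± 0.31, edgeR adjusted p = 1.42e-05), as were Thy1 (-1.86 ± 0.23), Col1a2 (-1.21 ± 0.22), the pericyte gene Rgs5 (-1.20 ± 0.14) and Cspg4 (-0.37 ± 0.12). Col1a1, Dcn and Des did not pass, with Col1a1 at 0.01 ± 0.12, and Acta2 and Lum had no assigned region. The 5 lower calls stand beside 30.3% of all loci called lower, and 58.3% called in either direction. Mast cell and melanocyte markers had regions at 2 of 8 genes, Mitf (log2 -0.44 ± 0.10, edgeR adjusted p = 0.0028) and Pmel (-0.12 ± 0.09, adjusted p = 0.286), while Cpa3, Fcer1a, Mcpt4, Hdc, Dct and Tyr had none. The summed mast cell and melanocyte value was 286 to 306 CPM in PB3-ERI-R, 384 to 387 in PB3-PAC-R, 363 to 365 CPM in PB3-VIN-R and 356 to 376 in PB3-Parental.

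Macrophage markers had 3 lower loci of 3 with regions, Csf1r of the first list among them, and summed to 11.4 to 12 CPM in PB3-ERI-R, 87.9 to 89.7 in PB3-PAC-R, 77.8 to 109 CPM in PB3-VIN-R and 78.9 to 87.8 in PB3-Parental. Adgre1, Cd68 and Lyz2 had no assigned region. Epithelial markers had 7 higher, 0 lower and 3 not called of 10 (median 2.74), and summed to 1330 to 1500 CPM in PB3-ERI-R, 471 to 629 in PB3-PAC-R, 444 to 642 CPM in PB3-VIN-R and 491 to 639 in PB3-Parental. Esrp1, a splicing regulator of epithelium, was at 169 ± 2.83 CPM in PB3-ERI-R against 7.71 ± 1.59 CPM in PB3-Parental (log2 4.45 ± 0.18, edgeR adjusted p = 4.93e-08). Cldn7, a tight junction gene, was at 19.7 ± 1.76 CPM in PB3-ERI-R against 0.978 ± 0.37 CPM in PB3-Parental (log2 4.33 ± 0.31, adjusted p = 9e-07). Krt8, Krt18 and Cldn4 did not pass the test and were open in both lines, with Krt8 at 176 ± 30.1 CPM in PB3-ERI-R and 154 ± 48.6 CPM in PB3-Parental. Over all loci 28% were called higher and 30.3% lower. No marker locus with a region was at 0 counts in a line, and an open marker locus does not show that the cell type was present. The part of other cell types in the differences at the 10 genes was not tested.

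**Figure D5:**
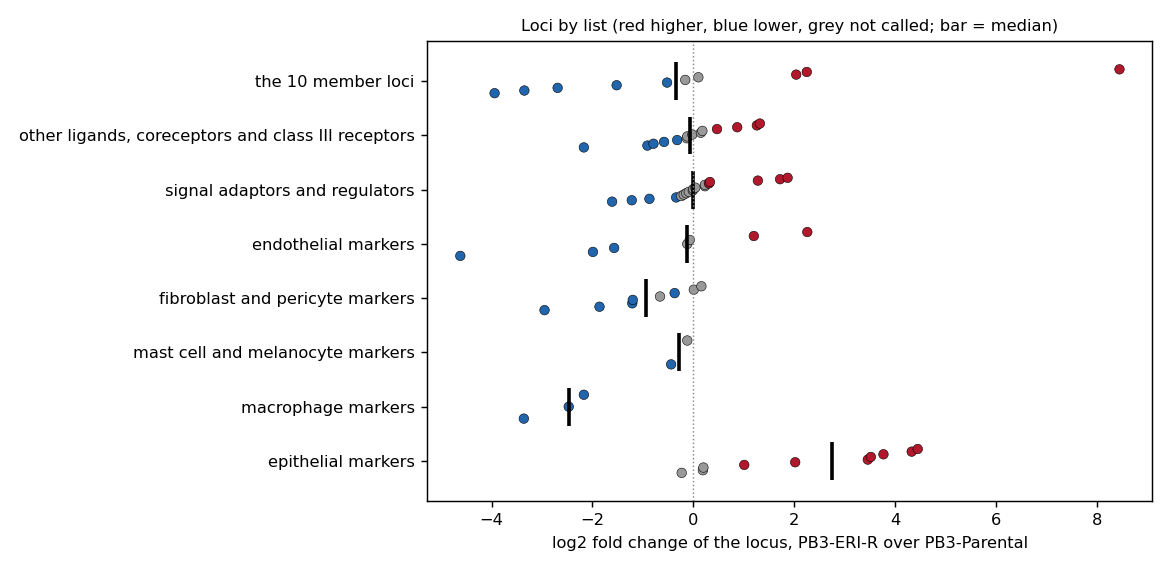
Log2 fold change of single loci in PB3-ERI-R over PB3-Parental for the 10 genes and for 7 other lists, with red for called higher, blue for called lower, grey for not called and a bar for the median of each list. The 10 genes spread from -3.94 (Flt4) to 8.45 (Kit) around a median of -0.34.

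The loci whose pattern over the 8 libraries was most like that of each gene were found among 13655 loci whose average log2 CPM was 3 or more (13656 for Kit), by the Euclidean distance of centred log2(CPM + 0.1) values. For Kit they were Prlr, the prolactin receptor gene (distance 0.920), Igfbp5, which encodes an IGF-binding protein (0.926), and Efcab6 (1.03), against a median distance of 7.94 over all candidates. Prlr and Igfbp5 stood at 6.87 and 7.15 in PB3-ERI-R over PB3-Parental on the log2 scale. For Kdr they were Cypt1 (0.201), Mdga2 (0.316) and Cyp7b1 (0.335), against a median of 3.88. For Pdgfa the nearest was Tlr3 (0.177), for Flt1 Gm5820 (0.248), for Pdgfrb Ccdc184 (0.253) and for Flt4 Nlgn1 (0.792). Since PB3-ERI-R differs from the other lines at most loci, such likeness describes a shared contrast between lines and nothing more.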

How the data were processed

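ATAC-seq libraries, 8 in all, measured open chromatin in 4 PB3 lines. The submitters' processing notes list the tools Bowtie2 2.2.6, MACS2 2.1.1, Picard, cutadapt 1.9.1, bcl2fastq 2.20.0.422, deepTools and featureCounts and the builds mm10 and GRCm38; the sources used here give no settings. Raw counts per consensus region, not normalized, are what the deposited table holds (regions 73 to 2316 bp wide, median 473 bp). Each line has 1 deposited peak list, with a score, a fold enrichment (a ratio), a -log10 q value and a summit; only the start and end of each peak were used, and any shared base counted as overlap. Other values in the deposited consensus list are the region coordinates.

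Each region went to the nearest protein-coding gene of 21900 (RefSeq, GRCm38.p6), inside it or within 50 kb, which placed 48280; 1662 were equally near to several genes and went to a curated gene first. Counts per region and per locus entered the quasi-likelihood test of edgeR 4.0.16 in R 4.3.3 (TMM scaling, filterByExpr, all libraries, 1 term per line, 4 residual degrees of freedom), adjusted by Benjamini-Hochberg over all 57415 regions or 14880 loci and called at 0.05. CPM use TMM-scaled library sizes, with region factors of 0.8023 and 0.8584 in PB3-ERI-R and 1.0355 to 1.0899 elsewhere. Libraries of a line differed by more than sampling noise (chi-square over its degrees of freedom, 4.8 in PB3-ERI-R to 10.34 in PB3-VIN-R). Exact intervals used scipy 1.17.1, and the fits were tested on simulated data.

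Alternatives were DESeq2 1.42.0 (size factors, Wald test), no scaling factor, loess offsets, other count filters, a replicate block, pairwise fits, each library left out, offsets for the median of each 5 Mb window, and narrower distance limits. Leaving out regions tied between genes was added after seeing the data. The genes, lists and tests were chosen with earlier results of these data known. Named regions were those within 1 kb of a start (or a gene end where no strand is tabulated) and the most changed one of each gene, and named list loci the 3 with the smallest adjusted p; others were named after their values were seen. Promoter windows of Pdgfb and Pdgfrb were not analysed here.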

Additional observations from a re-analysis of the deposited data

Results flagged for a closer look

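Direct tests between resistant lines set PB3-ERI-R apart at 8 of the 10 loci. These calls stand beside 60.3% of all loci against PB3-PAC-R and 58.6% against PB3-VIN-R. Log2 fold changes of PB3-ERI-R over PB3-PAC-R were 7.03 for Kit, 2.25 for Flt1, 2.18 for Pdgfa, -2.68 for Pdgfrb, -3.07 for Kdr, -2.90 for Flt4, -1.60 for Pdgfc and -0.43 for Vegfc, with edgeR adjusted p from 1.19e-07 (Pdgfa) to 0.00292 (Vegfc). Over PB3-VIN-R they were 6.54 for Kit, 2.33 for Flt1, 2.27 for Pdgfa, -2.75 for Pdgfrb, -3.12 for Kdr, -3.34 for Flt4, -1.41 for Pdgfc and -0.35 for Vegfc, with adjusted p from 9.04e-08 (Pdgfa) to 0.00946 (Vegfc). Each call has both libraries of PB3-ERI-R on the same side of both libraries of the other line. The share of all loci without such overlap was counted only against PB3-Parental, where it was 78.7%. The values for Kit rest on 3 counts over the PB3-PAC-R libraries and 7 over the PB3-VIN-R libraries.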

How the results depend on the processing

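Offsets for the 5 Mb window changed most. With them Vegfc was reversed, to 1.25 over PB3-Parental, 1.30 over PB3-PAC-R and 1.25 over PB3-VIN-R. Flt1 was not called over PB3-Parental (0.16, edgeR adjusted p = 0.25) or PB3-PAC-R (0.28, adjusted p = 0.0533), and Flt4 was not called over PB3-PAC-R (-0.93, adjusted p = 0.0771). The Pdgfra locus became called lower in PB3-ERI-R over PB3-PAC-R (-0.50, adjusted p = 0.0156) and PB3-VIN-R (-0.67, adjusted p = 0.003). Over PB3-VIN-R it was also called lower without a scaling factor (-0.40, adjusted p = 0.0336). Vegfc was also reversed with regions within 10 kb only (0.51 over PB3-Parental, 0.50 over PB3-PAC-R and 0.60 over PB3-VIN-R) and inside the gene only (0.48, 0.50 and 0.59), where its downstream region is left out. Window offsets turned the sign of 5 Flt1 regions. Over PB3-Parental the log2 fold changes became -0.13 (not called, edgeR adjusted p = 0.678), -0.98, -1.23, -1.69 and -0.59. Over PB3-PAC-R they became -0.52 (not called, adjusted p = 0.089), -1.10, -1.17, -1.57 and -0.47 (not called, adjusted p = 0.0764). Over PB3-VIN-R they became -0.26 (not called, adjusted p = 0.384), -0.94, -1.0, -1.47 and -0.44 (not called, adjusted p = 0.0877). The remaining values were called lower. The offsets also reversed the Pdgfa region chr5:138989472-138989926, to -1.38 over PB3-Parental and -1.49 over PB3-VIN-R. These offsets left 7 loci and 36 regions (16 higher, 20 lower) called in PB3-ERI-R over PB3-Parental. Without a scaling factor the median of all regions moved to -0.29, where 25.9% were called higher and 43.8% lower, and the members had 19 higher and 18 lower. With loess offsets that median was 0.21, the split 42% and 34.8%, and the members had 25 higher and 16 lower. The other alternatives, leaving out regions tied between genes included, kept 8 called loci in PB3-ERI-R over PB3-Parental, except that both narrower distance limits left 7, since the only Kdr region lies 11.1 kb from the gene and Kdr then has no value. Leaving out 1 library gave 8 loci each time and 37 to 40 regions. In PB3-VIN-R over PB3-Parental the count of called regions was 2 with the DESeq2 Wald test and 0 when only both lines were fitted, and from 0 to 2 with 1 library left out. The replicate block gave 1 called locus (Pdgfra, 0.42, adjusted p = 0.0424) and 5 called regions there and 3 regions in PB3-PAC-R over PB3-Parental, and 9 and 10 loci in PB3-ERI-R over PB3-PAC-R and over PB3-VIN-R, as Pdgfb and then also Pdgfra passed. Same-numbered libraries deviated together with correlations from 0.36 to 0.446 among PB3-PAC-R, PB3-VIN-R and PB3-Parental and from 0.073 to 0.182 between PB3-ERI-R and these lines. As 1 of the 6 (PB3-ERI-R with PB3-Parental) was under 0.1 and the labels tie the numbers to nothing, the libraries were not taken as paired. Calls among PB3-PAC-R, PB3-VIN-R and PB3-Parental depend on that choice. Over all regions the block called 2717 in PB3-VIN-R over PB3-Parental, against 389 without it. In PB3-PAC-R over PB3-Parental it called 636, against 49. The cause of these shifts was not tested. Depth limits Kit most, where all lines but PB3-ERI-R had 1 to 7 counts. With 2 libraries per line, a locus that misses the threshold in PB3-PAC-R or PB3-VIN-R is not shown to be alike.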
